A study of Arabidopsis thaliana with 8 samples.

Results

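A set of 10 genes of the surface layer of plant immunity were followed in rosette leaves of Arabidopsis thaliana, chosen by their locus identifiers out of 27826 loci on the array: FLS2 (AT5G46330), EFR (AT5G20480), CERK1 (AT3G21630), PEPR1 (AT1G73080), PEPR2 (AT1G17750), RLP23 (AT2G32680), SOBIR1 (AT2G31880), BAK1 (AT4G33430), BIK1 (AT2G39660) and RBOHD (AT5G47910). All 10 were measured, each with 1 value per array, and they lie on chromosomes 1 (2 genes), 2 (3 genes), 3 (1 gene), 4 (1 gene) and 5 (3 genes). Transcripts were measured on 8 Affymetrix arrays. A mutant line, given in the labels as animaa50 and described there as depleted in NAA50, gave 4 arrays, and wild type Col-0 gave the other 4. Both genotypes were grown in soil in short days for 7 weeks, and leaves were taken 2 h after lights on. NAA50 acetylates the N-terminus of proteins as part of the cell's N-terminal acetyltransferase machinery.

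Plant cells detect microbes and damage with receptors in the plasma membrane. Receptor kinases such as FLS2 and EFR bind bacterial peptides, PEPR1 and PEPR2 bind the plant's own Pep danger peptides, CERK1 takes part in chitin signalling, and receptor proteins without a kinase, such as RLP23, work through the adaptor kinase SOBIR1. Leucine-rich repeat receptors of this kind recruit BAK1 as a shared co-receptor, the cytoplasmic kinase BIK1 carries the signal onward, and BIK1 phosphorylates the NADPH oxidase RBOHD, which makes the apoplastic burst of reactive oxygen.

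Values are log2-scale expression values, so a difference of 1 is a 2-fold change, and every difference subtracts the wild type mean, so that a positive one means higher on the arrays labelled NAA50-depleted. NAA50 (AT5G11340) itself was higher on the arrays labelled depleted, at 10.43, 10.52, 10.24 and 10.33, against 4.71, 4.54, 4.23 and 4.75 in wild type, a difference of 5.83 ± 0.14 (SE, n = 4 arrays per group, limma adjusted p = 3.47e-09). If the label refers to the transcript, this value goes against it, and the arrays are therefore called "labelled NAA50-depleted" throughout. Arrays correlated across loci at 0.979 to 0.988 within a group and at 0.951 to 0.967 between groups. The 6 mesophyll and leaf markers ranged from 5.51 to 13.3 over all arrays, whereas no root or flower marker of 11 exceeded 2.70 on any array. The median of all loci was 2.73 on each array. Whether each array stands for another plant is not in the labels, so p-values cover the spread between arrays, which may be technical, and 4 arrays per group limit the precision.

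Of the 10 genes, 4 rose on the arrays labelled NAA50-depleted: SOBIR1, BIK1, RBOHD and BAK1. The 6 others, namely FLS2, EFR, CERK1, PEPR1, PEPR2 and RLP23, did not pass the threshold (limma, Benjamini-Hochberg adjusted p under 0.05 over all loci). Whether these receptors as a set changed less than the 4 was not tested. Of all loci, 6.95% were called higher and 7.58% lower, so the 4 of 10 called higher stand against 6.95%. At an unadjusted p under 0.05 in limma, FLS2, PEPR1 and RLP23 were higher too. That made 7 of the 10 higher and 0 lower, where 11.3% of all loci were higher and 14.6% lower. Brighter loci were called more often. Among loci with a mean above 5 over all 8 arrays, 13.8% were higher and 17.0% lower, and 4 of the 6 genes at that brightness rose. BIK1 had a wild type mean of 4.74 and entered this set only through its arrays labelled NAA50-depleted. The count of 4 of 6 is therefore not independent of the rise itself. The 4 that rose were also the 4 whose groups did not overlap, where 8.48% of all loci lay apart in that direction. The median difference of the 10 was 0.77, against -0.03 for all loci. After cyclic loess scaling the share of higher loci among those called was 59.3%, against 47.8% in the deposited values, while the median of the 10 genes was 0.83. Leaf tissue is a mixture of cells, so a change in the number of cells of a type and a change in RNA per cell cannot be told apart.

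**Figure D1:**
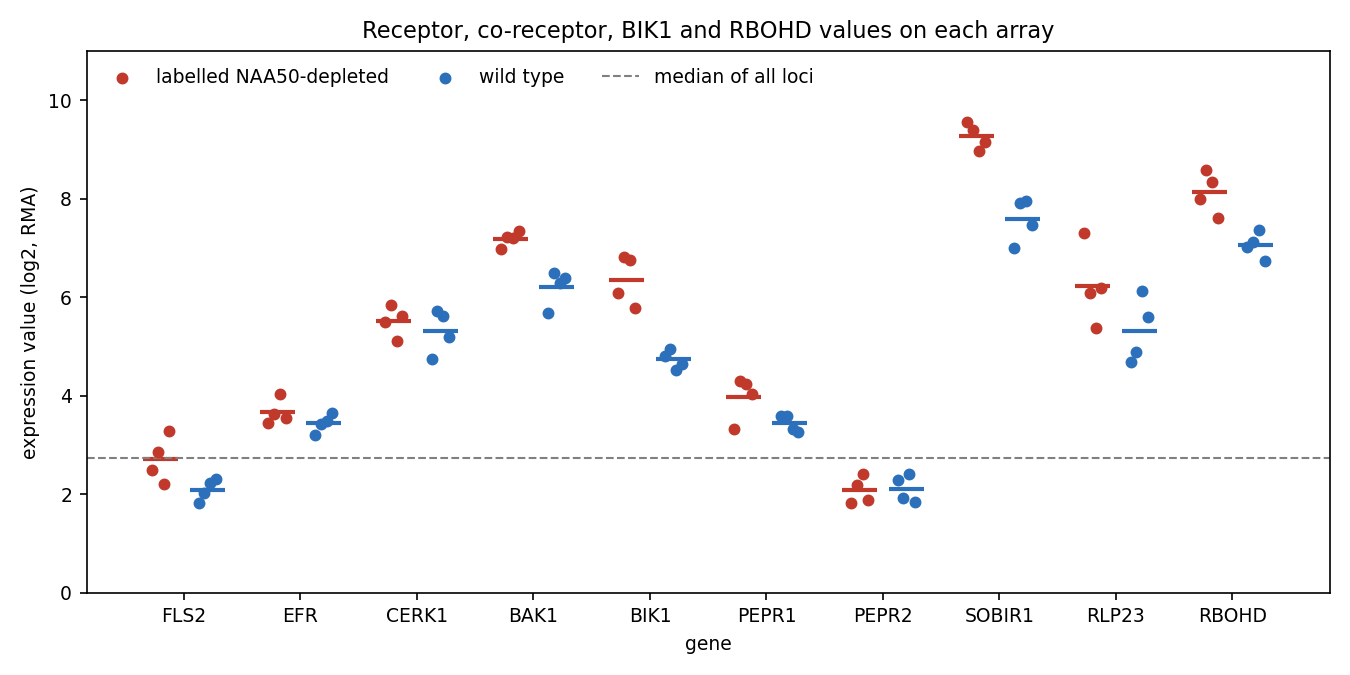
Expression values (log2, vertical axis) of the 10 genes on each array, with 4 arrays labelled NAA50-depleted (red, left) and 4 wild type arrays (blue, right); horizontal bars are group means and the dashed line is the median of all loci, 2.73. The groups lie apart for BAK1, BIK1, SOBIR1 and RBOHD and overlap for the other genes.

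SOBIR1, the adaptor kinase of receptor-like proteins, showed the largest difference of the 10. Its values on the arrays labelled NAA50-depleted were 9.55, 9.40, 8.97 and 9.16, against 6.997, 7.90, 7.95 and 7.46 in wild type. All arrays labelled depleted lay above all wild type arrays, with 1.02 between the nearest values. The difference was 1.69 ± 0.21 (SE, n = 4 arrays per group, limma adjusted p = 0.000326), or 3.23-fold with a 95% interval of 2.33 to 4.46. This placed SOBIR1 at percentile 98.7 of the differences of all loci.

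RLP23, the receptor-like protein for a peptide of microbial NLP proteins that acts with SOBIR1, varied most between arrays of a group. It had 7.30, 6.08, 5.37 and 6.18 on the arrays labelled NAA50-depleted, against 4.69, 4.88, 6.12 and 5.59 in wild type. The groups overlapped, since labelled-depleted replicate 3 lay below wild type replicates 3 and 4. Labelled-depleted replicate 2 also lay below wild type replicate 3. The difference was 0.91 ± 0.39 (SE, n = 4 arrays per group) and did not pass, at a limma adjusted p of 0.165. The 95% interval ran from 0.05 to 1.78, so a change as large as that of SOBIR1 lies within it. Leaving out 1 array at a time gave 0.56 (without labelled-depleted replicate 1) to 1.202 (without labelled-depleted replicate 3), and RLP23 passed in none of these fits. The pooled standard deviation within groups was 0.732 for RLP23, at percentile 98.7 of loci with a mean above 5, whose median was 0.187.

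BAK1, the co-receptor kinase of the SERK family, had 6.97, 7.21, 7.21 and 7.35 on the arrays labelled NAA50-depleted, against 5.68, 6.49, 6.28 and 6.39 in wild type. The lowest array labelled depleted was 0.48 above the highest wild type array, and wild type replicate 1 was the lowest of all 8. BAK1 rose by 0.97 ± 0.17 (SE, n = 4 arrays per group, limma adjusted p = 0.00305), or 1.96-fold with a 95% interval of 1.50 to 2.56.

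BIK1, the receptor-like cytoplasmic kinase downstream of the receptors, had 6.08, 6.82, 6.76 and 5.78 on the arrays labelled NAA50-depleted, against 4.81, 4.95, 4.53 and 4.65 in wild type. The groups lay 0.83 apart at their nearest values. The standard deviation was 0.513 on the arrays labelled NAA50-depleted and 0.183 in wild type. BIK1 rose by 1.62 ± 0.22 (SE, n = 4 arrays per group, limma adjusted p = 0.000553), or 3.08-fold with a 95% interval of 2.19 to 4.32.

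RBOHD, the NADPH oxidase, had 7.997, 8.57, 8.34 and 7.61 on the arrays labelled NAA50-depleted, against 7.02, 7.13, 7.37 and 6.74 in wild type. The gap was the narrowest of the 4 that rose, 0.24 between labelled-depleted replicate 4 and wild type replicate 3. RBOHD rose by 1.06 ± 0.21 (SE, n = 4 arrays per group, limma adjusted p = 0.00488), or 2.09-fold with a 95% interval of 1.53 to 2.86.

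**Figure D2:**
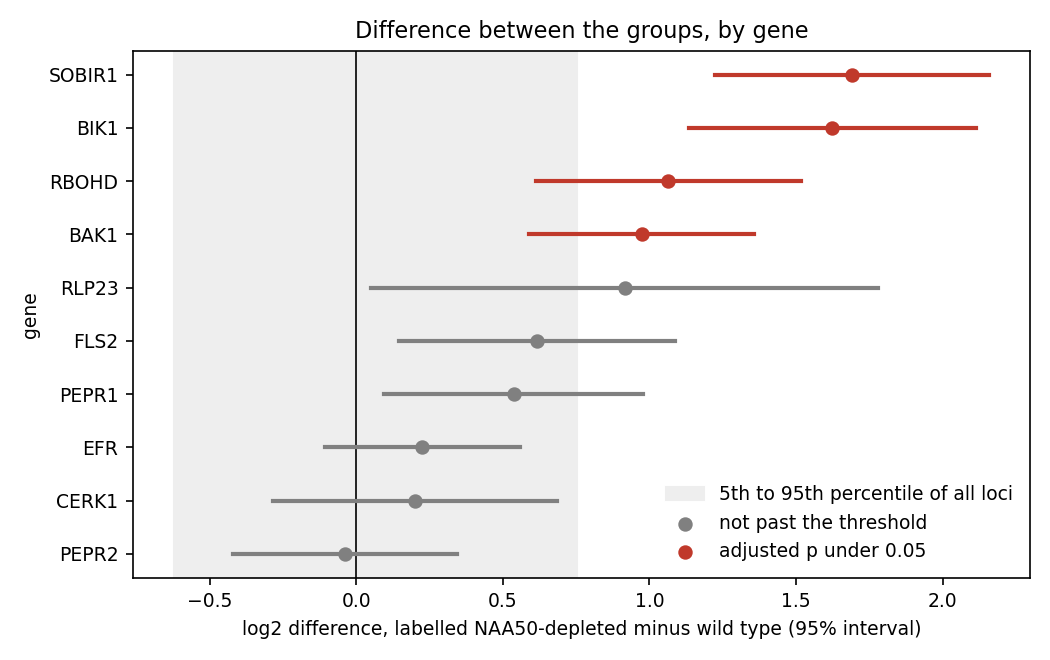
Log2 difference of each of the 10 genes (horizontal axis, labelled NAA50-depleted minus wild type) with its 95% interval from limma, n = 4 arrays per group; red marks an adjusted p under 0.05 and the grey band spans the 5th to 95th percentile of all loci, from -0.62 to 0.75. SOBIR1, BIK1, RBOHD and BAK1 lie to the right of the band, as does RLP23 (0.91), which is not marked red, and the intervals of EFR, CERK1 and PEPR2 include 0.

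The receptors for bacterial peptides did not pass. FLS2, which binds flagellin, had 2.48, 2.87, 2.20 and 3.29 on the arrays labelled NAA50-depleted, against 1.82, 2.03, 2.23 and 2.31 in wild type. Only labelled-depleted replicate 3 lay inside the wild type range. Its difference was 0.62 ± 0.21 (SE, n = 4 arrays per group, limma adjusted p = 0.0843), and it passed without that array, at 0.79 and an adjusted p of 0.0253. With any other array left out FLS2 did not pass, with values down to 0.42 and a limma adjusted p of up to 0.189. All wild type values of FLS2 lay below the array median, and signal over background is not known there. EFR, which binds the elongation factor Tu peptide, had 3.44, 3.63, 4.03 and 3.56 on the arrays labelled NAA50-depleted, against 3.20, 3.42, 3.49 and 3.64 in wild type. The groups overlapped, and the difference was 0.23 ± 0.15 (limma adjusted p = 0.406) with a 95% interval of -0.11 to 0.56, so a rise of the size of SOBIR1 or BIK1 lies outside it. Leaving out 1 array at a time gave 0.10 (without labelled-depleted replicate 3) to 0.30 (without labelled-depleted replicate 1).

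CERK1, the LysM receptor kinase of chitin signalling, was among the genes with the smallest differences. It had 5.50, 5.85, 5.12 and 5.62 on the arrays labelled NAA50-depleted, against 4.75, 5.71, 5.62 and 5.19 in wild type. The difference was 0.20 ± 0.22 (SE, n = 4 arrays per group, limma adjusted p = 0.648), with a 95% interval of -0.28 to 0.69. It was 0.01 without wild type replicate 1, the lowest wild type array, and 0.34 without labelled-depleted replicate 3, the lowest of that group.

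The receptors of Pep peptides, PEPR1 and PEPR2, also did not pass. PEPR1 had 3.32, 4.29, 4.24 and 4.04 on the arrays labelled NAA50-depleted, against 3.59, 3.58, 3.33 and 3.25 in wild type. Replicates 2, 3 and 4 of the labelled-depleted group lay above every wild type array, and replicate 1 lay within the wild type range. The difference was 0.54 ± 0.20 (SE, n = 4 arrays per group, limma adjusted p = 0.110), and without labelled-depleted replicate 1 it was 0.75 and passed (adjusted p = 0.00588). With any other array left out PEPR1 did not pass, with values down to 0.43 and a limma adjusted p of up to 0.259. PEPR2 had 1.82, 2.19, 2.42 and 1.88 on the arrays labelled NAA50-depleted, against 2.28, 1.93, 2.41 and 1.85 in wild type. These values overlapped throughout and lay below the array median. The difference of PEPR2 was -0.04 ± 0.17 (limma adjusted p = 0.930), with a 95% interval of -0.42 to 0.34, and its sign turned when any of 4 arrays was left out, to between 0.016 and 0.059.

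Whether related genes changed unequally was tested on the difference of their log2 values within each array, over 6 pairs, with an exact two-sided permutation test whose smallest possible p is 0.0286. The difference of BIK1 exceeded that of its close homolog, the kinase PBL1, by 1.36 (95% interval 0.45 to 2.27, from a linear model of the 8 arrays), and the within-array values did not overlap between the groups. PBL1 itself differed by 0.26 ± 0.16 (SE, n = 4 arrays per group, limma adjusted p = 0.355). For BAK1 minus SERK4, a co-receptor of the same family that acts redundantly with it, the value was -0.62 (-1.01 to -0.23), and for BAK1 minus SOBIR1 it was -0.72 (-1.27 to -0.16). Each of these 3 pairs gave the smallest exact permutation p, 0.0286, and 0.0571 after adjustment over the 6 pairs, so none passed. With 3 pairs at the smallest p, none can pass this adjustment unless more pairs reach it. The adjusted test therefore cannot decide whether these pairs changed unequally. Without labelled-depleted replicate 3, these 3 pairs and the pair of FLS2 and EFR (0.68) had an adjusted exact permutation p of 0.0429. The unadjusted p of the 3 pairs stayed at the smallest possible value. Their adjusted p fell only because another pair reached that value. With all arrays FLS2 minus EFR gave 0.39 (-0.41 to 1.19, exact permutation p = 0.314). PEPR1 minus PEPR2 gave 0.57 (0.05 to 1.10), with an exact permutation p of 0.0571 and 0.0857 after adjustment. All values of PEPR2 and all wild type values of FLS2 lay below the array median. Signal over background is not known there, so a change in them may not show in full. Whether the probes tell BAK1 and SERK4 apart was not examined. RBOHD minus RBOHF, the other leaf NADPH oxidase with a role in immunity, gave 0.51 (-0.38 to 1.41, exact permutation p = 0.229).

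**Figure D3:**
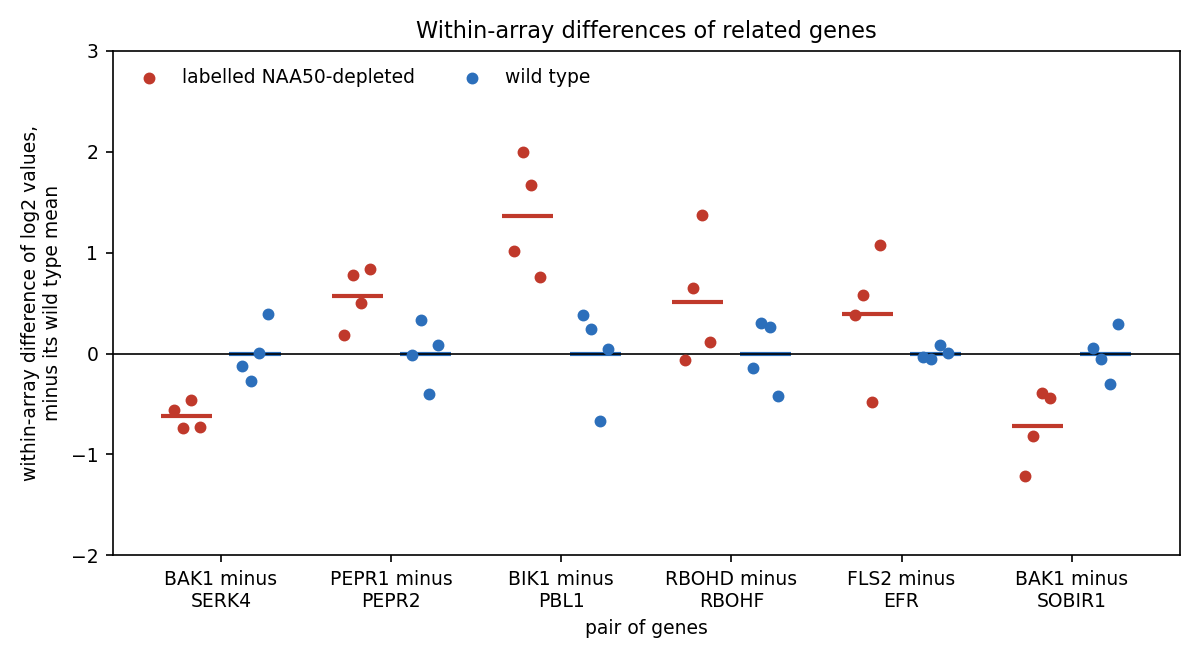
Within-array difference of log2 values for 6 pairs of genes (vertical axis), shifted so that the wild type mean of each pair is 0; points are arrays, bars are group means, red is labelled NAA50-depleted and blue is wild type. The groups lie apart for BAK1 and SERK4, BIK1 and PBL1, and BAK1 and SOBIR1.

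Among the other genes of the pathway, 34 of 91 rose and none fell in limma, against 6.95% and 7.58% of all loci. Of the 40 with a mean above 5 over all 8 arrays, 22 rose, against 13.8% of all loci at that brightness. That mean includes the arrays labelled NAA50-depleted, so a gene can enter the set through its own rise. MYB51 and SERK5, for example, had wild type means of 3.90 and 4.19. The count of 22 of 40 is therefore not independent of the rise. At an unadjusted p under 0.05 in limma the counts of the 91 were 42 and 2, against 11.3% and 14.6% of all loci. The 91 genes belong to 8 lists by role, chosen with earlier results of these data known. Without wild type replicate 3, 1 of the 91 fell, the co-receptor gene SERK2, at -0.53 (limma adjusted p = 0.0419). Of 8 epidermis markers 3 fell, namely CER1 (-1.89), PDF2 (-0.84) and LTP1 (-0.84), with a list median of -0.37 and a mean per array of 6.37 to 6.87 on the arrays labelled NAA50-depleted, against 7.14 to 7.39 in wild type. LACS2 (-0.48) was lower at an unadjusted p under 0.05 only, and PDF1 differed by 0.037. Of 6 guard cell markers 2 fell, namely KAT1 (-0.92) and SLAC1 (-0.60), with a list median of -0.40 and a mean per array of 4.25 to 4.52 on the arrays labelled NAA50-depleted, against 4.53 to 4.94 in wild type. MYB60 (-0.45) was lower at an unadjusted p under 0.05 only, and GC1 and HT1 differed by 0.24 and 0.056. Of 6 vasculature markers 1 rose, the sulfate transporter gene SULTR2;2 (1.05), with a list median of 0.05, and AHA3 (-0.69) and IRX3 (-0.37) were lower at an unadjusted p under 0.05 in limma. Of the mesophyll, root and flower markers none were called, with the mesophyll markers GLDP1 (-0.38) and LHCB2.1 (-0.42) lower at an unadjusted p under 0.05 in limma. RBCS1A had the same value, 13.3, on all arrays labelled NAA50-depleted, so a change in it may not show. No root or flower marker had a group mean above 2.28, which is below the array median of 2.73, and signal over background is not known there. The part of cell composition in the results was not tested.

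Of the other pattern and damage receptors, 7 of 16 rose and none fell, against 6.95% and 7.58% of all loci. The median difference of the list was 0.49. LYK5, a LysM receptor kinase that binds chitin and acts with CERK1, had 7.61, 7.78, 7.76 and 7.22 on the arrays labelled NAA50-depleted, against 5.18, 5.80, 5.97 and 5.57 in wild type. It rose by 1.96 ± 0.19 (SE, n = 4 arrays per group, limma adjusted p = 4.76e-05), while CERK1 did not pass. Whether LYK5 and CERK1 changed unequally was not tested. RLK7, a leucine-rich repeat receptor kinase, rose by 1.44 ± 0.24 and AT4G08850 by 1.18 ± 0.14, with limma adjusted p-values of 0.00182 and 0.000173.

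Of the SERK co-receptors and BIR regulators, 5 of 9 rose and none fell, against 6.95% and 7.58% of all loci. The list median was 0.72. The largest increases in this list were SERK5 at 1.80 ± 0.17, BIR1 at 1.79 ± 0.20 and SERK4 at 1.59 ± 0.20 (SE, n = 4 arrays per group), with limma adjusted p-values of at most 0.000342. SERK4 had 7.80, 8.22, 7.95 and 8.35 on the arrays labelled NAA50-depleted, against 6.08, 7.04, 6.55 and 6.28 in wild type. BIR1, a receptor kinase known to bind BAK1 and to restrain SOBIR1-dependent defence, had 8.27, 8.33, 8.18 and 8.30 on the arrays labelled NAA50-depleted, against 5.81, 6.59, 6.97 and 6.52 in wild type. For both genes all arrays labelled depleted lay above all wild type arrays. SERK4 and SERK5 are closely related to each other and to BAK1, and whether the probes tell them apart was not examined.

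Of the receptor-like cytoplasmic kinases, the family of BIK1, 6 of 14 rose and none fell, against 6.95% and 7.58% of all loci. The list median was 0.28. APK2A (also PBL2) rose by 1.50 ± 0.14, NAK by 1.33 ± 0.13 and AT5G47070 by 1.26 ± 0.16 (SE, n = 4 arrays per group), with limma adjusted p-values of at most 0.000280. The difference of BIK1, 1.62, was larger than that of any of these 14 genes, a comparison of values that was tested for PBL1 only.

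Of the regulators of BIK1, FLS2 and RBOHD, 10 of 15 rose and none fell, against 6.95% and 7.58% of all loci. The list median was 0.57. CPK28, a calcium-dependent kinase known to promote turnover of BIK1, had 6.81, 7.80, 7.20 and 6.92 on the arrays labelled NAA50-depleted, against 4.62, 4.76, 5.23 and 5.31 in wild type. It rose by 2.20 ± 0.23 (SE, n = 4 arrays per group, limma adjusted p = 8.80e-05), or 4.60-fold. XLG2, an extra-large G protein that stabilises BIK1 and acts with RBOHD, rose by 1.61 ± 0.16 and the calcium-dependent kinase CPK11 by 0.87 ± 0.16, with limma adjusted p-values of 5.80e-05 and 0.00431. At an adjusted p under 0.01 the count of this list was 6.

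Among the remaining parts of the pathway few genes were called, where 6.95% of all loci were called higher and 7.58% lower. Counts in lists this short cannot be told apart from those shares. Of the 11 genes for peptide ligands and their processing, AT5G44585 alone rose, by 1.10 ± 0.31 (SE, n = 4 arrays per group, limma adjusted p = 0.0351). That call was lost when any 1 wild type array or labelled-depleted replicate 4 was left out, and the value was 0.73 to 1.35 over all arrays left out in turn. The 6 PROPEP genes, which encode the precursors of the Pep ligands of PEPR1 and PEPR2, differed by -0.17 to 0.21, with every group mean below the array median of 2.73. Of the 9 RBOH genes other than RBOHD none were called, and 1, RBOHF, was higher at an unadjusted p under 0.05 in limma. RBOHF had 4.38, 4.24, 3.28 and 3.81 on the arrays labelled NAA50-depleted, against 3.48, 3.14, 3.42 and 3.47 in wild type. Its difference was 0.55 ± 0.21 (limma adjusted p = 0.123), and without labelled-depleted replicate 3, the lowest of its group, it was 0.76 and passed (adjusted p = 0.0113). With any other array left out RBOHF did not pass, with values down to 0.40 and a limma adjusted p of up to 0.292. The means of the 8 others lay below the array median in both groups. Of the 6 genes for folding and maturation of EFR in the endoplasmic reticulum none were called, and 1, STT3A (-0.32), was lower at an unadjusted p under 0.05 in limma. The largest difference there was that of the calreticulin CRT3, at 0.64 ± 0.29 (adjusted p = 0.197), which passed without labelled-depleted replicate 3 at 0.91 (adjusted p = 0.0363) and was 0.38 without labelled-depleted replicate 1 (adjusted p = 0.431).

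Of 11 response genes downstream of the receptors, 5 rose and none fell, against 6.95% and 7.58% of all loci. The list median was 0.74. WRKY22 and PHI1 rose by 3.63 ± 0.23 and 3.48 ± 0.20 (SE, n = 4 arrays per group), and MYB51, a regulator of indolic glucosinolates, by 2.71 ± 0.36, with limma adjusted p-values of at most 0.000483. The flagellin-responsive kinase gene FRK1, by contrast, had 2.51, 2.04, 1.33 and 2.25 on the arrays labelled NAA50-depleted, against 2.05, 2.49, 1.31 and 1.97 in wild type. Its difference was 0.07 ± 0.28 (limma adjusted p = 0.914), with values below the array median, and it was chosen for mention after its values were seen. All 11 differences were positive, and that of FRK1 was the smallest. NHL10 (0.68) and PAD3 (0.61), not called either, were higher at an unadjusted p under 0.05 in limma.

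**Figure D4:**
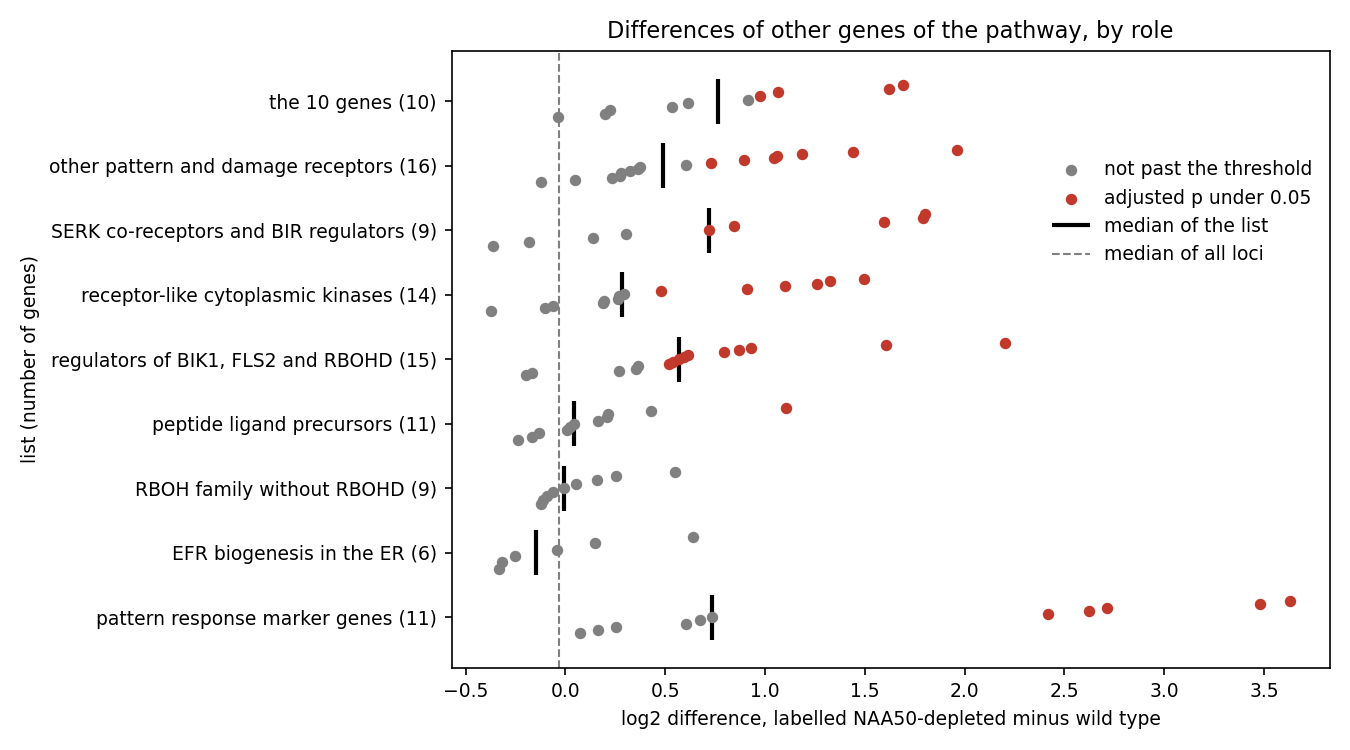
Log2 differences (horizontal axis, labelled NAA50-depleted minus wild type) of the 10 genes and of 91 other genes of the pathway in 8 lists; each point is a gene, red marks an adjusted p under 0.05 in limma, black bars are list medians and the dashed line is the median of all loci, -0.03. Regulators hold 10 red points of 15, and the RBOH and EFR biogenesis lists hold none. Of all loci, 6.95% were called higher and 7.58% lower.

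Across the 8 arrays, the loci with profiles most like BAK1 were J8, AT5G58150 and RHA1B, each with a Pearson r of 0.98, and those most like RBOHD were KAT3, AT3G57450 and HSF A4A, with r of 0.98. The search covered 13912 loci, of which 521 had r above 0.9 with BAK1 and 297 with RBOHD. These r values hold the difference between the groups as well as the spread within them and are given as a description.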

How the data were processed

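Transcripts of rosette leaves were measured on 8 arrays, 4 labelled NAA50-depleted and 4 wild type, grouped by sample title. The authors deposited 1 table of values from RMA (background correction, quantile normalization and probe summary), which the submitters' processing notes name, and the scale was read as log2, the usual output of RMA. Its version, chip definition, genome build and log base: not given in the sources used here. Sorted values were the same on all arrays, so the deposited table is quantile-normalized and a global rise or fall cannot be seen in it. Slides and scan dates were not used here, and any batch matching the genotypes cannot be told apart from them.

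All 27826 loci were fitted by group with limma 3.58.1 in R 4.3.3 (two-sided, Benjamini-Hochberg adjustment over all loci, threshold 0.05, no filter) and tested on simulated data. Locus identifiers were matched to the TAIR10.1 gene table for names (27241 matched). Members, lists and tests were chosen with earlier results of these data known. Named genes were the 10 members, NAA50, from each list the up to 3 largest called increases and decreases without overlap, or the largest difference where none was called, the partners in 6 pairs, and the 3 loci most like BAK1 and RBOHD. Alternatives were a replicate block, median centring, cyclic loess, filters at the 25th and 50th percentiles on at least 4 arrays, a trended robust variance, array weights, each array left out, an adjusted p of 0.01 and exact permutation, unadjusted and adjusted. The main fit did not pair arrays by replicate number. Correlations between same-numbered arrays gave no sign of pairing, which 4 arrays per group cannot exclude.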

Additional observations from a re-analysis of the deposited data

Results flagged for a closer look

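A single wild type array lay far from the other 3 of its group for 4 of the 30 named genes, among 60 groups of 4 arrays examined by Dixon's ratio. Chance alone marks about 1 group in 20. None of the 10 receptor, co-receptor, BIK1 and RBOHD genes was marked in either group. Wild type replicate 2 was high for AT4G08850, at 3.34 against 3.02 to 3.06 on the other wild type arrays, and low for RBOHF, at 3.14 against 3.42 to 3.48. Wild type replicate 4 was low for RLK7, at 3.93 against 4.31 to 4.36. Wild type replicate 3 was high for CPK11, at 5.36 against 4.71 to 4.79.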

How the results depend on the processing

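SOBIR1, BIK1, RBOHD and BAK1 stayed called and higher in limma under each of the 16 alternatives run for them with adjustment over all loci. The exact permutation test gave each an unadjusted p of 0.0286, the smallest it can give. Adjusted over all loci, an alternative chosen after seeing the data, this exact permutation p was 0.152, so that test called none of the 4 and none of all loci. With a smallest p of 0.0286, no locus can pass this adjustment unless most loci reach that p. The outcome therefore says little about the 4. Leaving out 1 array at a time gave 1.50 to 1.81 for SOBIR1, 1.47 to 1.82 for BIK1, 0.92 to 1.24 for RBOHD and 0.80 to 1.07 for BAK1. The same settings gave 0.42 to 0.79 for FLS2, 0.43 to 0.75 for PEPR1 and -0.15 to 0.059 for PEPR2, whose sign turned without wild type replicate 1 (0.016), wild type replicate 3 (0.059), labelled-depleted replicate 1 (0.048) and labelled-depleted replicate 4 (0.028). They gave -0.71 to -0.49 for BAK1 minus SERK4, 1.14 to 1.56 for BIK1 minus PBL1, 0.16 to 0.68 for FLS2 minus EFR and -0.83 to -0.55 for BAK1 minus SOBIR1. The count of the 10 genes called higher was 4 to 5, and of the 91 pathway genes 30 to 36 were higher and 0 to 1 lower. At an adjusted p under 0.01, 1228 loci were higher and 1010 lower, against 1934 and 2108 at 0.05, and 4 of the 10 genes were still called. The replicate numbers gave correlations of -0.05 to 0.04 between same-numbered arrays of the groups, and 1 of 4 arrays correlated best with its own number. With the replicate number as a block, 4 of the 10 genes were called higher, and the 4 were the same genes, with differences of 1.69 for SOBIR1, 1.62 for BIK1, 1.06 for RBOHD and 0.97 for BAK1. The filter at the array median kept 8 of the 10 genes, without FLS2 and PEPR2. Median centring changed no value, since all arrays have the same median. Where a call or sign changed, the cause was not tested beyond the array left out.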
